A study of Zea mays with 4 samples.

Results

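Core histones are the proteins around which DNA is wound: H2A, H2B, H3 and H4 together make the nucleosome, while the linker histone H1 sits on the DNA between nucleosomes. Each class is encoded by many gene copies. In plants, as in other eukaryotes, most core histone transcripts are made while DNA is being replicated, and histone chaperones then carry the new proteins to the replicated DNA. In a growing grass leaf, cells divide at the leaf base and next pass into the elongation zone, where they lengthen. The core histone genes described here are all loci of the deposited expression table under 6 gene names: 1 gene of H2A (GRMZM2G305046, his2a1), 3 genes of H2B (GRMZM2G342515, his2b5; GRMZM2G119071, his2b2; GRMZM2G071959, histone2b1), and all loci named H3C2 (an H3 name) or H4C7 (an H4 name). The name H3C2 stood at 9 loci and H4C7 at 14, so the 6 names made up 27 of 30378 loci, and all 27 were among the 22489 loci with enough signal to be tested. Core histone genes under other names were not analysed here.

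RNA was sequenced from the elongation zone of leaf 6 of the maize inbred B73, grown in hydroculture. The 2 control libraries (HN1 and HN2) came from plants given 4 mM nitrogen and the 2 low-nitrogen libraries (LN1 and LN2) from plants given 0.04 mM. No allele, transgene or other agent is named for either group. The labels do not tell whether replicate libraries stem from separate plants, so the p-values cover the spread among these 4 samples, which could be technical. Levels are FPKM, the fragments of a locus scaled to its transcript length and to the size of the library, and changes are LN minus HN on the scale of log2(FPKM + 1).

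Every core histone locus was lower in both LN libraries than in both HN libraries. Summed over the 27 loci, the level was 5998 and 11478 FPKM in HN1 and HN2 and 2065 and 1837 FPKM in LN1 and LN2. The groups did not overlap. HN2 was far above HN1, while both LN libraries lay close together. The LN mean was 4.48-fold lower than the HN mean, 3.07-fold lower than HN1 alone and 5.88-fold lower than HN2 alone. As a share of all FPKM in the library, the 27 loci took 0.737% and 1.03% in HN1 and HN2 and 0.310% and 0.259% in LN1 and LN2. Each library is a mixture of cells, so fewer cells that make histone transcripts and less transcript per cell cannot be told apart.

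**Figure D1:**
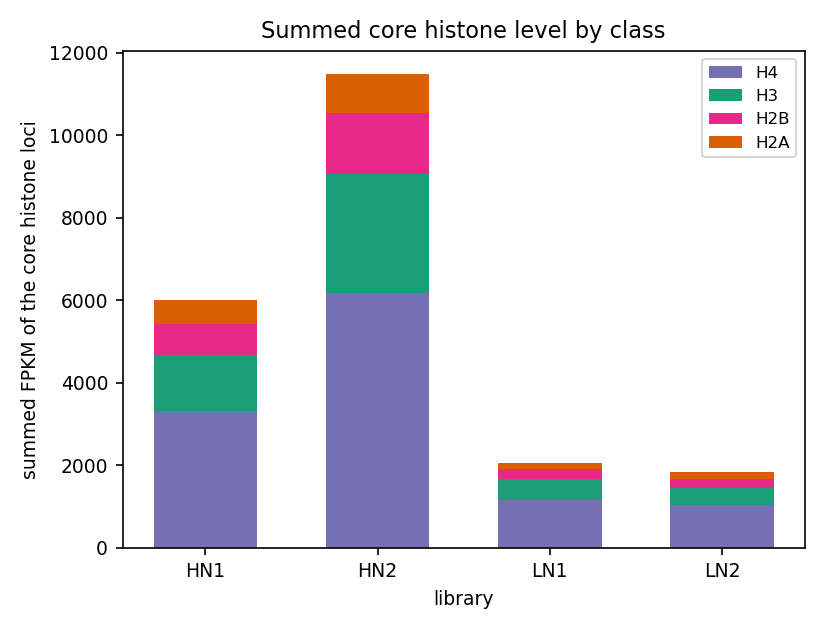
Summed FPKM of the core histone loci in each library (vertical axis), with 1 bar per library and 1 coloured part per histone class (H4 14 loci, H3 9, H2B 3, H2A 1). The bars reach 5998 and 11478 in HN1 and HN2 and 2065 and 1837 in LN1 and LN2, and the classes keep similar proportions in all 4.

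Of the 27 loci, limma called 16 lower in LN at an adjusted p under 0.05 and 0 higher. Over all tested loci the same test called 3.8% lower and 1.18% higher. The other 11 had adjusted p-values from 0.0535 to 0.106, and the 16 calls had adjusted p-values up to 0.0496, so the threshold ran through a narrow range of values. All 27 had an unadjusted limma p under 0.05. The share of all tested loci under that value was not counted, but it was not small. The elongation zone gene expB5 had an unadjusted limma p of 0.0485 and an adjusted p of 0.152. An adjusted p that near to its unadjusted p means that many of all tested loci also lay under 0.05. This count and the unadjusted counts of the gene lists below thus have no background beside them and are not read as results. In the authors' deposited table, 27 of 27 loci were called lower, with log2 fold changes from -2.82 to -1.18, beside 13.6% of tested loci called lower and 5.76% called higher there. Both LN libraries lay below both HN libraries at 27 of 27 core histone loci and at 29.9% of all tested loci. The 9 H3C2 and 14 H4C7 loci may be nearly identical copies that share reads. The 27 loci are therefore not 27 separate observations in any of these counts. The median change was -2.12 over the 27 loci (range -2.58 to -1.40) and 0.073 over all tested loci. The limma calls did not hold in every setting: with a pseudocount of 0.1, without the filter on low values, or without either LN library, 0 of the 27 loci were called, although all 27 changes stayed negative. With 2 libraries a group, an exact permutation test of a single locus cannot give a two-sided p below 0.333.

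H2A was represented by 1 locus, his2a1 (chromosome 9, 139441604 to 139442697, B73 RefGen_v3 as for all positions here). Its level was 563 and 946 FPKM in HN1 and HN2 and 165 and 157 FPKM in LN1 and LN2. The LN pair lay within a few percent of each other and far below both HN libraries. his2a1 fell from 755 ± 271 to 161 ± 5.64 FPKM (SD, n = 2), or by 2.17 in log2 units (SE 0.38, limma adjusted p = 0.0460). The change was -1.80 against HN1 alone and -2.55 against HN2 alone.

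H2B, the partner of H2A in the nucleosome, was represented by 3 loci, of which limma called 2 lower. his2b5 (chromosome 4, 160982216 to 160983377) was at 296 and 582 FPKM in HN1 and HN2 and 67.7 and 69.3 FPKM in LN1 and LN2. It had the largest change of all 27 loci, -2.58 (SE 0.38, limma adjusted p = 0.0446), from 439 ± 202 to 68.5 ± 1.16 FPKM (SD, n = 2). Against HN1 alone its change was -2.09 and against HN2 alone -3.07. his2b2 (chromosome 4, 63117504 to 63120057) was at 190.0 and 369 FPKM in HN1 and HN2 and 69.1 and 56.6 FPKM in LN1 and LN2. It also fell by 2.06 (SE 0.38, limma adjusted p = 0.0474). histone2b1 (chromosome 7, 119943267 to 119944091) was at 266 and 514 FPKM in HN1 and HN2 and 100.5 and 111 FPKM in LN1 and LN2. Its groups did not overlap either, but its change of -1.80 (SE 0.39) missed the threshold (limma adjusted p = 0.0581). In HN both his2b5 and histone2b1 stood above his2b2. In LN histone2b1 was the highest of the 3 in both libraries, and his2b5 and his2b2 lay near each other.

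H3 was represented by the 9 loci named H3C2, of which limma called 5 lower. Their log2 changes ran from -2.49 to -1.47 with a median of -2.12. The name is shared by 9 loci and the reference gene table holds it as 1 gene, so these copies may be nearly identical. How the authors' counting divided reads between such copies is not given in the sources used here, and the level of a single copy is therefore uncertain. The same holds for H4C7. The highest copy (chromosome 9, 17731052 to 17732110) was at 419 and 842 FPKM in HN1 and HN2 and 108.5 and 102 FPKM in LN1 and LN2, and fell by 2.48 (SE 0.41, limma adjusted p = 0.0452). Of 2 copies close together on chromosome 2, the one at 55112932 to 55113772 was at 188 and 435 FPKM in HN1 and HN2 and 54.0 and 46.8 FPKM in LN1 and LN2 and fell by 2.49 (SE 0.43, limma adjusted p = 0.0459). Its neighbour at 55260326 to 55261020 was at 219 and 466 FPKM in HN1 and HN2 and 105.3 and 79.2 FPKM in LN1 and LN2, with a change of -1.80 that missed the threshold (SE 0.43, limma adjusted p = 0.0676). So the neighbours were alike in HN, and in LN the second stood higher, in LN1 nearly at the level of the highest copy and in LN2 below it. A weak copy (chromosome 10, 116391902 to 116394321) was at 32.3 and 79.6 FPKM in HN1 and HN2 and 9.47 and 7.23 FPKM in LN1 and LN2 and fell by 2.48 (SE 0.44, limma adjusted p = 0.0470). The weakest copy by its HN mean (chromosome 6, 77039006 to 77040996) was at 24.5, 54.9, 12.3 and 10.6 FPKM in the same order, with a change of -1.61 (SE 0.39, limma adjusted p = 0.0701). A large change thus stood at strong and at weak copies. The smallest H3C2 change, -1.47 (SE 0.42, limma adjusted p = 0.0899), belonged to the copy on chromosome 4 (112897031 to 112897982), at 154 and 339 FPKM in HN1 and HN2 and 88.4 and 75.6 FPKM in LN1 and LN2. The other 3 copies, on chromosomes 10 (115538556 to 115539595) and 3 (15447725 to 15449051, and 132295042 to 132296689), had changes of -2.30, -2.12 and -1.80. Of these, the copy on chromosome 10 and the one starting at 15447725 were called lower, and the last was not called.

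H4 was represented by the 14 loci named H4C7, of which limma called 8 lower. Their log2 changes ran from -2.56 to -1.40 with a median of -2.13. The strongest locus of all 27 (chromosome 7, 119982867 to 119992231) was at 579 and 1046 FPKM in HN1 and HN2 and 199.9 and 192 FPKM in LN1 and LN2. Its change of -1.99 (SE 0.41) missed the threshold (limma adjusted p = 0.0551), and its locus spans 9365 bp, so its value could include transcripts besides one histone gene's. The largest H4C7 change stood on chromosome 4 (156508359 to 156509901), with 417 and 721 FPKM in HN1 and HN2 and 115 and 74.1 FPKM in LN1 and LN2. This copy fell by 2.56 (SE 0.40, limma adjusted p = 0.0446). Unlike most copies, its LN libraries differed clearly, LN1 being the higher. The smallest adjusted p of the 27 loci, 0.0437 by limma, belonged to a copy on chromosome 8 (117349861 to 117351374) with 208 and 352 FPKM in HN1 and HN2 and 50.9 and 52.7 FPKM in LN1 and LN2 and a change of -2.36 (SE 0.32). A copy on chromosome 10 (134829897 to 134830543) was at 201 and 373 FPKM in HN1 and HN2 and 57.2 and 56.3 FPKM in LN1 and LN2 and fell by 2.25 (SE 0.35, limma adjusted p = 0.0446). In both of these the LN libraries were nearly equal. The copy on chromosome 1 (4234225 to 4235315) was at 102 and 235 FPKM in HN1 and HN2 and 29.7 and 29.3 FPKM in LN1 and LN2 and fell by 2.35 (SE 0.41, limma adjusted p = 0.0469).

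The smallest changes among the H4C7 loci stood at long loci. The locus on chromosome 7 from 146636822 to 146645061 spans 8240 bp and had 160.0 and 322 FPKM in HN1 and HN2 and 110.2 and 66.0 FPKM in LN1 and LN2, a change of -1.40 (SE 0.44, limma adjusted p = 0.106). The locus on chromosome 8 from 168809297 to 168815423 spans 6127 bp and had 169 and 311 FPKM in HN1 and HN2 and 82.1 and 84.3 FPKM in LN1 and LN2, a change of -1.45 (SE 0.35, limma adjusted p = 0.0698). With the strongest H4C7 locus, whose change was -1.99, these are the 3 loci longer than 6000 bp, a limit not planned beforehand. limma called 0 of the 3, and shorter loci were also among the 11 of 27 not called. Other transcripts within so long a locus were not examined. The shortest locus of the 27, an H4C7 copy of 313 bp on chromosome 7 (148119935 to 148120247), was at 75.9 and 192 FPKM in HN1 and HN2 and 27.9 and 20.1 FPKM in LN1 and LN2. Its change of -2.30 missed the threshold (SE 0.47, limma adjusted p = 0.0538), and its HN libraries differed by 1.33 on the log2 scale, the largest such difference among the 27. The remaining copies lay on chromosomes 2, 3 and 8. Of these, the copies at 183945414 to 183947706 on chromosome 2 and at 181880046 to 181882632 on chromosome 3 were not called, with changes of -1.83 and -1.85 (limma adjusted p = 0.0535 and 0.0537). The 4 others were called lower, with changes of -1.81 (chromosome 2, 14631514 to 14632312), -2.07 (chromosome 2, 14732306 to 14734748), -2.19 (chromosome 3, 13959414 to 13961037) and -2.33 (chromosome 8, 16168399 to 16169065). The locus starting at 14732306 is also listed under the gene GRMZM2G120717, so its reads cannot be assigned to H4C7 alone.

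**Figure D2:**
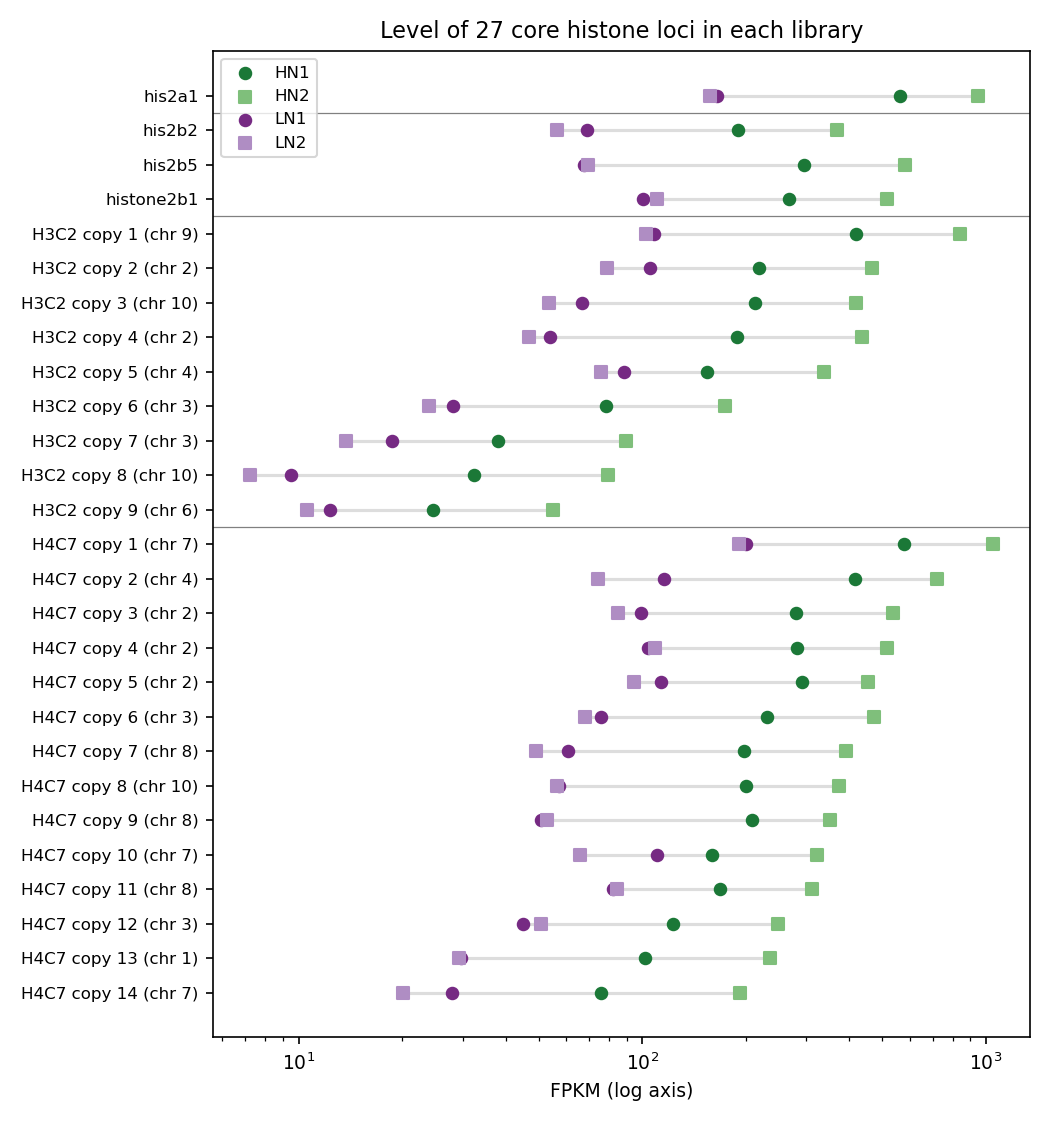
FPKM of each of the 27 core histone loci in every library on a log axis, grouped by class, with copies of one name numbered by falling HN mean. Circles are HN1 and LN1, squares HN2 and LN2. In every line both LN points lie left of both HN points, and the HN2 square lies right of the HN1 circle.

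How far apart the groups stood depended on which HN library was used. HN2 was above HN1 at all 27 loci, by a ratio of 1.56 to 2.53 with a median of 1.98. On the log2 scale the median difference was 0.98, against 0.074 over all tested loci, of which 4.62% reached the members' median. Against HN1 alone the changes ran from -2.16 to -0.90 with a median of -1.60, and against HN2 alone from -3.12 to -1.89 with a median of -2.55. All 27 changes were negative against either library, and all 27 were larger against HN2. At 23 loci the LN mean lay farther below HN1 than HN1 lay below HN2, and at 4 it did not. The LN libraries were closer to each other: LN1 was above LN2 at 21 loci and LN2 above LN1 at 6, with LN2 between 0.599 and 1.13 times LN1. The order HN2, HN1, LN1, LN2 therefore held at 21 loci. The HN2 library also had the highest FPKM total, 1113329 against 814307 in HN1, 666397 in LN1 and 710263 in LN2, and the lowest relative depth, 64.3% of that of LN1, against 75.8% in HN1 and 91.7% in LN2. Their part in the histone difference was not tested. Absolute depth is unknown.

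**Figure D3:**
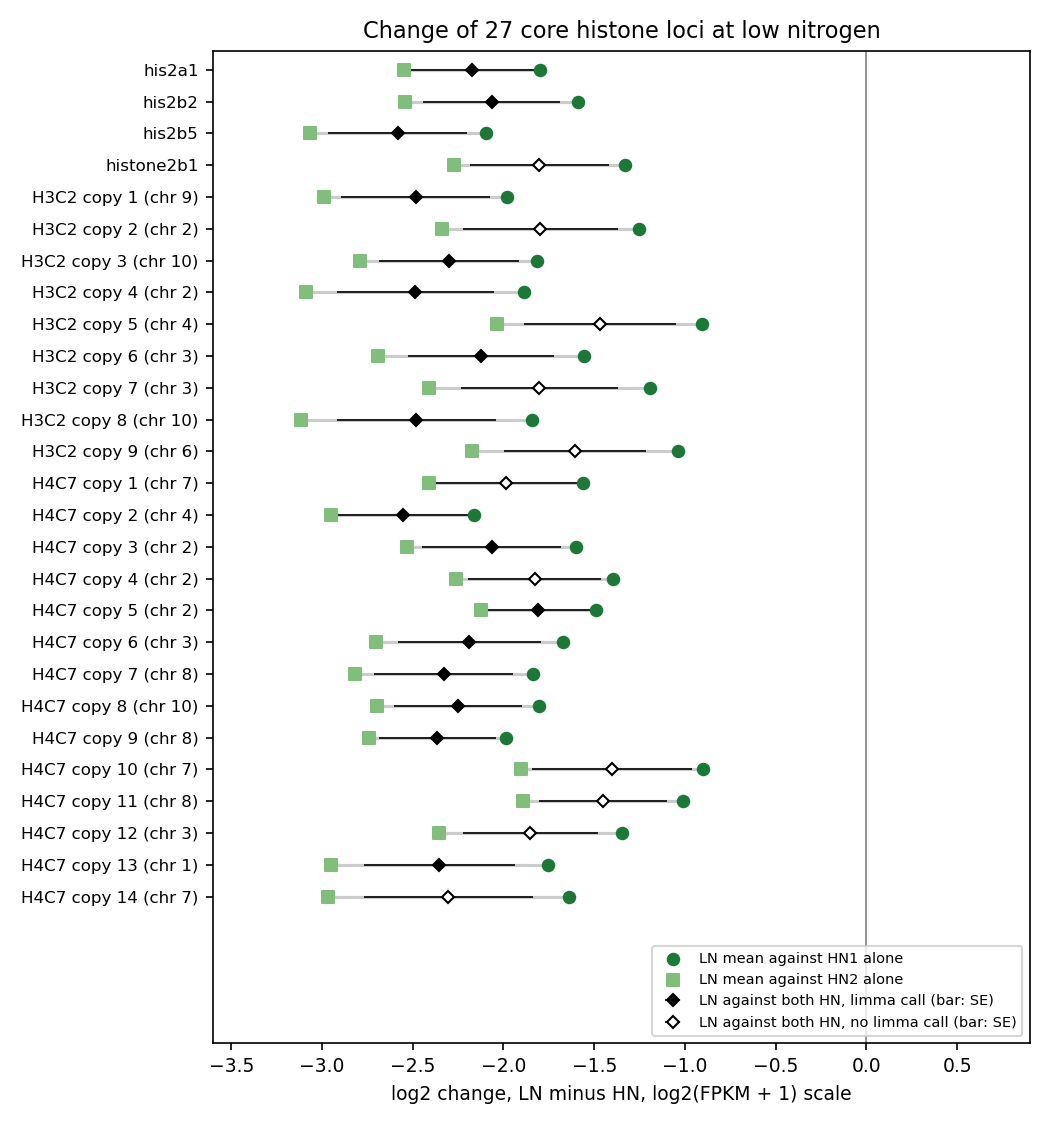
Log2 change of each of the 27 loci (LN minus HN, horizontal axis) against HN1 alone (dark circles), HN2 alone (light squares) and both HN libraries (diamonds with SE bars, filled where limma called the locus). All values lie left of 0, with -2.16 to -0.90 against HN1 alone and -3.12 to -1.89 against HN2 alone.

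**Figure D4:**
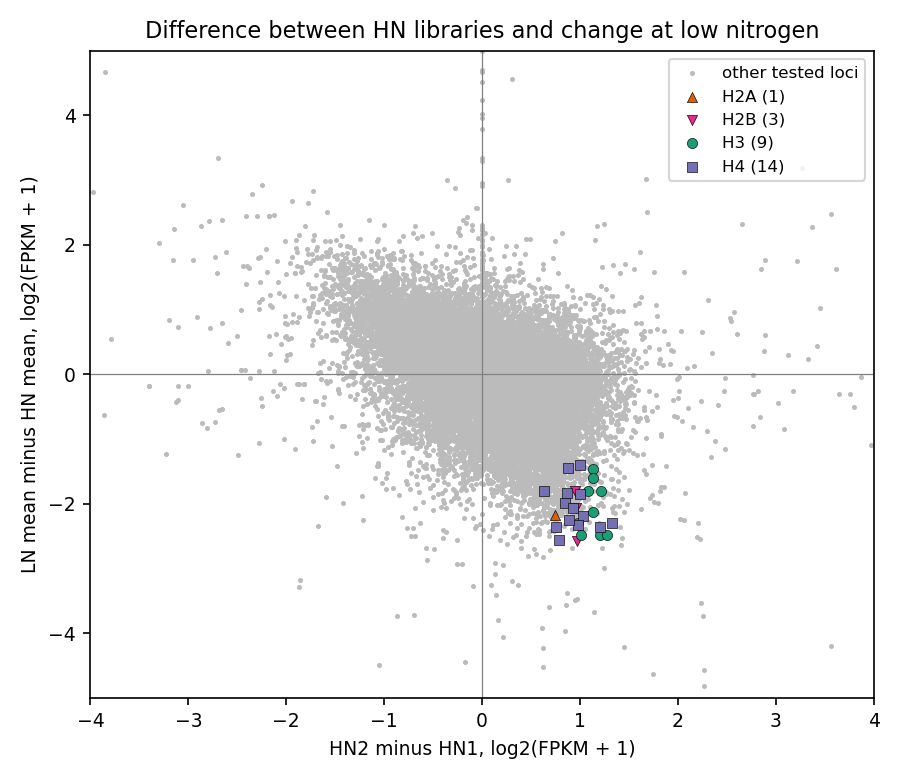
Difference between the HN libraries (HN2 minus HN1, horizontal axis) and LN minus HN change (vertical axis), both on the log2(FPKM + 1) scale, for all tested loci in grey and for the core histone loci by class. The core histone loci lie together at the lower right, from 0.64 to 1.33 on the horizontal and -2.58 to -1.40 on the vertical axis; 61 other loci lie outside the axes.

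The classes kept their proportions. Summed by class, the LN mean was 4.68-fold lower than the HN mean for H2A, 4.68-fold for H2B, 4.72-fold for H3 and 4.31-fold for H4. The H4C7 loci made 55.3% and 53.7% of the summed core histone level in HN1 and HN2 and 56.7% and 56.1% in LN1 and LN2. The H3C2 loci made 22.8%, 25.3%, 23.8% and 22.5% in the same order, H2B 12.5%, 12.8%, 11.5% and 12.9%, and H2A 9.38%, 8.24%, 7.99% and 8.55%. The H4 share was slightly higher in both LN than in both HN libraries, and the shares of the other classes overlapped between groups. The ratio of summed H4 to summed H3 was 2.43 and 2.13 in HN1 and HN2 and 2.38 and 2.50 in LN1 and LN2, and that of H2B to H2A 1.34, 1.55, 1.44 and 1.51.

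Among single loci, the 5 with the largest difference between shares in percentage points are named here, chosen after their values were seen. The H4C7 copy at 156508359 on chromosome 4 took 6.95% and 6.29% of the summed level in HN1 and HN2 and 5.58% and 4.03% in LN1 and LN2. The share of his2b5 went from 4.93% and 5.07% in HN to 3.28% and 3.77% in LN, and that of the highest H3C2 copy from 6.98% and 7.34% to 5.26% and 5.56%. In the other direction, the long H4C7 locus at 146636822 on chromosome 7 took 2.67% and 2.81% in HN and 5.34% and 3.59% in LN. The long H4C7 locus at 168809297 on chromosome 8 took 2.81% and 2.71% in HN and 3.98% and 4.59% in LN. In these 5 loci the shares of the groups did not overlap. The same held at most of the other core histone loci, so it was not particular to these 5. The order of the loci by level was otherwise much alike in all libraries: over the 27 loci, the correlation of log2 FPKM between libraries was 0.994 for the HN pair, 0.980 for the LN pair and between 0.933 and 0.948 across groups, as a description of loci that share libraries and, in part, sequence. Among all tested loci, the median core histone locus stood at a rank of 96.9% and 97.6% from the bottom in HN1 and HN2 and of 92.7% and 92.1% in LN1 and LN2. The lowest rank of any of the 27 was 77.3% in HN1 and 43.0% in LN2.

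The 27 loci lay on 9 chromosomes, 1 to 5 on each and none on chromosome 5. The closest pair joined classes: histone2b1 and the strongest H4C7 locus on chromosome 7 were 38775 bp apart, with 1 other locus of the table between them. That locus, GRMZM2G072406, was at 0.961 and 1.78 FPKM in HN1 and HN2 and 0.590 and 1.63 FPKM in LN1 and LN2, with a log2 change of -0.19 (limma adjusted p = 0.722). Next came 2 H4C7 loci on chromosome 2, 99993 bp apart, and 2 H3C2 loci on chromosome 2, 146553 bp apart. The tested loci between these pairs were GRMZM2G318527 between the H4C7 loci (change 0.91), and GRMZM5G894029 (1.09) and AC233967.1_FG001 (-0.56) between the H3C2 loci, and limma called none of them (adjusted p from 0.0843 to 0.267). So 2 of these 4 loci had positive and 2 negative changes.

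Linker histone genes, whose product H1 binds outside the nucleosome core, gave smaller values. limma called 0 of 4 tested, 1 had an unadjusted p under 0.05, and the authors' deposited table called 3 lower. The median change was -0.87, with -0.42 against HN1 alone and -1.31 against HN2 alone. hon101 was at 167 and 289.5 FPKM in HN1 and HN2 and 94.8 and 68.6 FPKM in LN1 and LN2, a change of -1.43 (limma adjusted p = 0.0738). hon110, the most abundant, was at 464, 911, 380 and 343 FPKM in that order, a change of -0.85 (limma adjusted p = 0.251). H1 was at 219, 385, 173 and 142 FPKM (-0.89, limma adjusted p = 0.166) and his1a at 296, 525, 277 and 257 FPKM (-0.56, limma adjusted p = 0.359). In all 4, as in the core histones, both LN libraries lay below both HN libraries and HN2 lay far above HN1. Against HN1 alone the median change was -0.42 for the linker genes and -1.60 for the core histone loci. The value of hon101, -1.04, lay within the core histone range of -2.16 to -0.90. Under quantile normalization the linker median was -0.040 with 2 of 4 changes negative, while the core histone median was -1.54 with 27 of 27 negative. Without HN1 all 4 linker changes were negative, with a median of -1.31, and without HN2 all 4 were negative with a median of -0.42. The difference in change between linker and core histones was not tested.

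The list of histone chaperones and assembly factors, matched by gene name alone, had a median change of -0.73 over 16 tested genes. Of these limma called 2 lower and 0 higher. Whether each gene's protein handles histones was not examined. All 16 changes were negative (13 under quantile normalization, and 15 under upper quartile scaling, without HN1 and without LN1), and the authors' deposited table called 8 lower. nfd106, named as a nucleosome or chromatin assembly factor of group D, was at 72.7 and 96.5 FPKM in HN1 and HN2 and 21.0 and 19.8 FPKM in LN1 and LN2 and fell by 1.99 (SE 0.23, limma adjusted p = 0.0424). nfa103, named as one of group A, was at 88.5, 82.8, 29.9 and 34.5 FPKM and fell by 1.39 (SE 0.20, limma adjusted p = 0.0446). In nfa103 HN2 was not the higher HN library, unlike in the core histones. With a pseudocount of 0.1, without the filter on low values or without either LN library, limma called 0 genes of the histone, replication, nucleotide and cell cycle lists. Of 16 genes for enzymes that modify histones, limma called 1 lower and 0 higher, with a median change of 0.081 (-0.13 with centring by locus length). The gene called was HDT2, which encodes a histone deacetylase of the plant HD2 type, at 144 and 156 FPKM in HN1 and HN2 and 52.8 and 58.2 FPKM in LN1 and LN2, a fall by 1.42 (SE 0.22, limma adjusted p = 0.0446).

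DNA replication genes had a median change of -1.08 over 10 tested, all negative (9 without HN1, without HN2 or without LN2), and limma called 2 lower and 0 higher. The authors' deposited table called 7 of the 10 lower. SLD5, a subunit of the GINS complex of the replicative helicase, was at 11.1 and 13.4 FPKM in HN1 and HN2 and 2.76 and 2.27 FPKM in LN1 and LN2 and fell by 1.91 (SE 0.22, limma adjusted p = 0.0431). orc2, of the origin recognition complex, was at 4.45, 4.31, 0.952 and 1.34 FPKM and fell by 1.33 (SE 0.22, limma adjusted p = 0.0454). Their HN libraries were close to each other, and the median HN2 minus HN1 difference of the list was 0.11, against 0.98 at the core histone loci. HN2 was above HN1 at 7 of the 10 genes, by most at PCNA (0.96) and pcna2 (0.62). Against HN1 alone the list's median was -1.01 and against HN2 alone -1.13. The genes of nucleotide supply, which provide building blocks for DNA, had a median of -0.58 over 6 tested, with 1 called lower and 0 higher. Their median HN2 minus HN1 difference was 0.48. RNRS1, a small subunit of ribonucleotide reductase, was at 39.4 and 72.2 FPKM in HN1 and HN2 and 12.9 and 8.87 FPKM in LN1 and LN2 and fell by 2.21 (SE 0.35, limma adjusted p = 0.0446).

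Cyclins, cell cycle kinases and their inhibitors and targets had changes on both sides of 0. limma called 0 of 22 tested in either direction, with a median change of 0.27. Without adjustment, 2 lower and 9 higher had p under 0.05, and the authors' deposited table had 2 calls in each direction. The D-type cyclin gene cycD2 was at 38.5 and 52.4 FPKM in HN1 and HN2 and 39.4 and 45.5 FPKM in LN1 and LN2, a change of -0.083 with overlapping groups (limma adjusted p = 0.832). krp15, of the family of cyclin-dependent kinase inhibitors, was at 37.5, 26.3, 56.5 and 56.3 FPKM, a change of 0.82 (limma adjusted p = 0.0940). The summed level of the list was 297 and 277 FPKM in HN1 and HN2 and 382 and 375 FPKM in LN1 and LN2, so here both LN libraries stood above both HN libraries. The list joins genes that drive the cycle with genes that restrain it, among them 7 krp genes and the kinase gene wee1. It also holds 3 RBR (retinoblastoma-related) genes. RBR1 and RBR2 had changes of 1.01 and 1.13, and RBR3 had a change of -1.01. Of the 9 higher without adjustment, 4 are krp genes, 2 RBR genes and 3 cyclins, so neither the median nor the sum of this list measures how many cells divide. The median change of the list was 0.29 without HN1 and 0.34 without HN2. The part of the share of dividing cells in the histone result was not tested.

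Markers of the leaf's developmental stages were read beside the histones. The 37 tested elongation zone genes (expansins, xyloglucan endotransglucosylases, tubulins, aquaporins and primary wall cellulose synthases) were abundant, with summed levels of 10987 and 17257 FPKM in HN1 and HN2 and 15042 and 13813 FPKM in LN1 and LN2. limma called 0 of them in either direction. Without adjustment, 1 lower and 3 higher had p under 0.05, and the authors' deposited table called 1 lower. Under quantile normalization 12 were called higher. The median change was 0.13 with all 4 libraries, -0.17 without HN1 and 0.42 without HN2. The most abundant, TUBA2 of alpha-tubulin and the aquaporin gene PIP1-1, had changes of -0.081 and 0.29 (limma adjusted p = 0.943 and 0.789). Of 30 mature blade loci (27 genes), limma called 7 lower and 0 higher, with a median change of -1.52, and the authors' deposited table called 24 lower. The limma count was 0 without the filter on low values and 2 with a pseudocount of 0.1, and it also dropped without either LN library. The median change was -1.85 without HN1 and -1.26 without HN2. Their sum was 11646 and 19896 FPKM in HN1 and HN2 and 6243 and 3674 FPKM in LN1 and LN2. As a sum these photosynthesis genes were abundant in the elongation zone samples, HN2 highest, as for the core histones. The CAB1 locus alone made 4500 and 8409 FPKM of the sum in HN1 and HN2. Others were weak, such as PSBE at 2.14 and 2.19 FPKM. HN2 was above HN1 at 24 of the 30 loci. PEPC1, a phosphoenolpyruvate carboxylase gene, fell by 2.91, and RBCS and rbcS, both of the small subunit of Rubisco, by 2.43 and 2.47 (limma adjusted p = 0.0203, 0.0365 and 0.0431). Of the 30 loci, 1, a psad1 locus, was listed at 0 in HN2 and in LN2. Of 5 tested meristem genes of the KNOX group and its repressor RS2, limma called 1 (0 under those same 4 settings), KNOX1, which rose from 9.27 FPKM in HN1 and 7.71 in HN2 to 18.6 in LN1 and 21.0 in LN2. The median change of these 5 was -0.13. The part of tissue composition in the histone result was not tested.

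**Figure D5:**
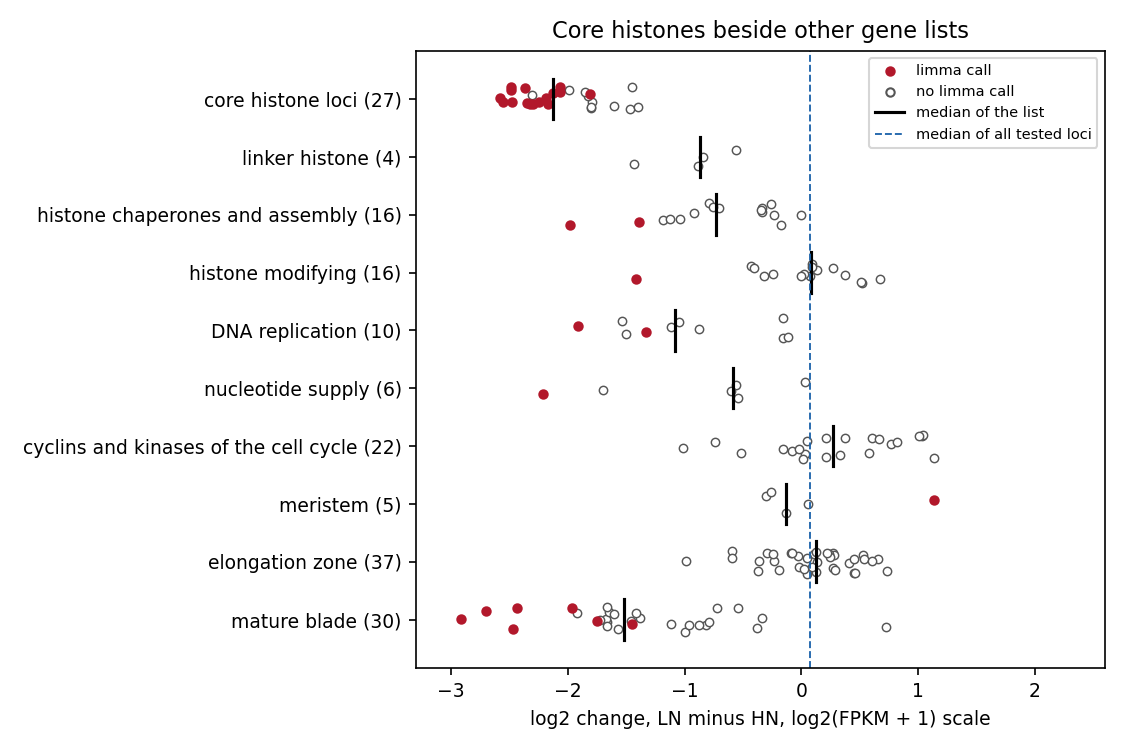
Log2 change (LN minus HN) of every tested gene of the core histone loci and of each gene list, 1 point per locus, filled where limma called it, with the median of each list as a black bar and the median of all tested loci as a dashed line. The number tested stands in parentheses. The core histone median is -2.12, that of mature blade genes -1.52, of DNA replication -1.08 and of cyclins and kinases 0.27.

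Genes outside these lists whose levels over the 4 libraries were most like the mean core histone pattern were sought among 1316 loci with a symbol and a mean of at least 5 FPKM. Likeness was the mean absolute difference of centred log2 values, over 4 libraries alone. The nearest was glu1, a beta-glucosidase gene, with a distance of 0.083 and levels of 137 and 250.2 FPKM in HN1 and HN2 and 50.0 and 47.3 FPKM in LN1 and LN2. Next came GRMZM2G030731 (0.11), ppr2 (0.12), the ribosomal protein gene RPL27A (0.13) and gpc4, of the glyceraldehyde-3-phosphate dehydrogenase family (0.14). RPL27A was at 1217 and 2313 FPKM in HN1 and HN2 and 393 and 460.3 FPKM in LN1 and LN2. The 27 loci themselves lay at distances of 0.025 to 0.33 from their own mean, and 680 other tested loci, 3.03%, were nearer to it than the farthest of the 27. Whether some of these 680 are histone genes under other names was not analysed here.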

How the data were processed

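Of each locus, the deposited table gives FPKM in 4 libraries, with log2 fold changes, p-values and q-values of the authors' own comparison, per the file headers. TopHat2, edgeR and the build B73 RefGen_v3 come from the submitters' processing notes; the program behind the FPKM values, and how reads were divided among near-identical copies, are not given in the sources used here. Both HN columns carry 1 name, so HN1 is the first and HN2 the second, and they pair with nothing. The source label of HN writes the dose in nM and the description in mM; mM was used.

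FPKM values were taken as log2(FPKM + 1), which understates changes of weak loci, for loci reaching 1 FPKM in 2 or more libraries, and tested with limma-trend 3.58.1 (R 4.3.3; tables with Python 3.11.15, pandas 2.3.3 and numpy 2.4.6), group as the only term, Benjamini-Hochberg adjustment over all 22489 tested loci and a threshold of 0.05. The script was tested on simulated data. limma had 2 residual and 3.48 prior degrees of freedom. The FPKM scale holds no absolute depth, so no counting interval is given; relative depth came from the lowest FPKM values. Values after ± are SDs over n = 2 libraries.

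The members and all gene lists were chosen with earlier results of these data known. Lists were matched on symbols of the RefSeq gene table (NAM-5.0, names alone), and 2 matches were left out as other proteins. Named were all core and linker histone loci, up to 3 called loci of each other list by smallest adjusted p, or the 2 of highest mean where none was called, and 5 loci of nearest pattern. Alternatives were a pseudocount of 0.1, no filter, a filter at 5 FPKM, quantile normalization, upper quartile scaling, centring within 20 bins of locus length, leaving out each library, and the authors' calls. Sequences, and histone loci under other names, were not analysed here.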

Additional observations from a re-analysis of the deposited data

How the results depend on the processing

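No paired analysis was possible because the HN columns carry no replicate numbers. All 27 core histone changes stayed negative under each of the 10 other settings fitted (from -3.12 to -0.77); of 270 pairs of locus and setting, 161 kept their side of the threshold, 64 lost the call and 45 gained it. In the main setting limma called 1121 loci, 855 of them lower (76.3%), 16 of the 27 core histone loci and 6 genes of the histone and cell cycle lists. With a pseudocount of 0.1 these counts were 101, 69, 0 and 0, and without the filter on low values 1, 0, 0 and 0. Quantile normalization called 2720 loci, 1749 lower (64.3%), with 24 core histone loci and 16 list genes, and a core histone median of -1.54. Centring by locus length called 2241, 1739 lower, with 23 and 15. A filter at 5 FPKM and upper quartile scaling called 20 and 21 core histone loci. The authors' deposited table called 4359 loci, 3064 lower, with 27 and 25. Leaving out 1 library gave 76 to 10470 calls, 43 to 5305 of them lower, 0 to 27 core histone loci and 0 to 42 list genes: without HN1 27 core histone loci were called, without HN2 26, and without LN1 or without LN2 0. Where a group was left with 1 library, that library was assumed to vary like the other group, so the HN spread counted alone without an LN library. The cause of the other differences was not tested. Copies that share a name, absolute depth unknown from FPKM, and 2 libraries a group limit every single-locus value.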
